A study of Mus musculus with 20 samples.

Results

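The H/ACA box small nucleolar RNAs (snoRNAs) and the small RNAs of Cajal bodies (scaRNAs) found in cauda epididymosomes are described here. Members were taken by name and type, as every feature called Snora or Scarna that the deposited tables class as snoRNA or scaRNA. The rule found 48 of 76273 features, 39 named Snora and 9 named Scarna, and 47 of them stood in both tables (Snora43 was listed in one only). GENCODE vM21 annotates 49 such gene names. Cauda epididymosomes are vesicles shed into the lumen at the far end of the epididymis, where sperm are stored, and here they were pelleted from the fluid left after sperm swim-up. Small RNA was sequenced from 5 Control males and 5 MSUS males at 9 months of age. As pups, MSUS males were separated from their dam for 3 hours per day over 14 days at unpredictable times, and the dams were stressed, whereas Control litters were left alone. The labels name no strain, genotype or litter. Each library was sequenced with and without selection by size, which gives 2 tables of 10 samples each. They are called the selected and the unselected table here, after their labels. By the sample titles the tables come from different sequencing runs, so selection and run cannot be told apart. Mature miRNAs took 10.9 to 17.02% of counts in the selected table and 52.4 to 72.2% in the unselected one, the larger share being in the table not labelled as selected for miRNA size, so every direction between tables refers to the labels alone. Libraries held 1872084 to 3647956 counts in the former and 215231 to 871461 in the latter.

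H/ACA RNAs fold into hairpins joined by a short H box and closed by an ACA near the 3′ end, and guide the pseudouridine synthase dyskerin to chosen bases of ribosomal RNA. The scaRNAs do the same kind of work on spliceosomal RNAs in Cajal bodies, and some of them carry C and D boxes, which guide methylation of the ribose. Most are cut from introns of other genes and act in the nucleus. In bulk vesicle RNA, fewer vesicles from one cell type and less of an RNA per vesicle cannot be told apart.

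The members on which the comparisons turn are printed from GENCODE vM21 (GRCm38), 5′ to 3′. Snora44 had the highest level per length in the unselected table, and Snora47 and Snora73a had low unadjusted p-values for MSUS in the other table. Snora73b is printed as the near copy of Snora73a, the Scarna3 pair as related RNAs that differed between tables, and Scarna9 as an example of the other kind of 3′ end. In H/ACA RNAs, capitals mark the H box letters ANANNA in the middle of the RNA and the last ACA. In Scarna9 they mark the C box letters TGATGA and the D box letters CTGA.
Snora44: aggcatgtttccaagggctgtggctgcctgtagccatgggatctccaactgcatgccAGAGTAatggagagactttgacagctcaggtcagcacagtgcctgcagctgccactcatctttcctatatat
Snora47: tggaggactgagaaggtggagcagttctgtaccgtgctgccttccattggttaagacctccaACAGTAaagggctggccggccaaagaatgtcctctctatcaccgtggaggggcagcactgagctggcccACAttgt
Snora73a: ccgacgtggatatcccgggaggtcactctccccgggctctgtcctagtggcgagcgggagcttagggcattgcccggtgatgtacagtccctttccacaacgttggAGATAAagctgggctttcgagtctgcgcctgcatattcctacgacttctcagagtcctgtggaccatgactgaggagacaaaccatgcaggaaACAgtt
Snora73b: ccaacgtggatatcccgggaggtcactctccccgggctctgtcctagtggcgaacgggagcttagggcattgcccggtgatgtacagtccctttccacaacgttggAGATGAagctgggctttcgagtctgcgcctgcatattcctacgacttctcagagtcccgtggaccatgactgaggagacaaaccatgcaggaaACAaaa
Scarna3a: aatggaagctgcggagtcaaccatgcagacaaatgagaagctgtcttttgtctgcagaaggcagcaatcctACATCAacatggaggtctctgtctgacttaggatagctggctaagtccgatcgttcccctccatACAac
Scarna3b: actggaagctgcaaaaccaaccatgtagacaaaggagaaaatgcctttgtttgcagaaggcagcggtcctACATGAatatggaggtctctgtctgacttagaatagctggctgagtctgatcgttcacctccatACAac
Scarna9: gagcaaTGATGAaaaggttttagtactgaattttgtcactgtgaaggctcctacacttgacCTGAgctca

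These genes lie at chr4:132309941-132310069 on the plus strand (Snora44, 129 nt, in the noncoding host Snhg12) and chr13:95330600-95330737 on the plus strand (Snora47, 138 nt, in an intron of Zbed3). Snora73a (chr4:132352775-132352979) and Snora73b (chr4:132352322-132352526) lie on the minus strand in introns of Rcc1. Scarna3a stands at chr1:159340283-159340422 on the plus strand in an intron of Cop1, and Scarna3b at chr12:80391613-80391751 on the minus strand in an intron of Dcaf5. Scarna9 stands at chr9:15326264-15326333 on the minus strand in an intron of Cep295. Of the 205 aligned bases of Snora73a and Snora73b, 198 are identical (96.6%). Counted from the 5′ end of Snora73a, the differences to Snora73b are G3A, G54A, A111G, T164C, G203A, T204A and T205A. Scarna3a and Scarna3b are identical at 85.7% of 140 aligned columns.

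The letters ACA stood within the last 9 bases of 37 of 39 Snora members (94.9%) and 4 of 9 Scarna members (44.4%), against 7.14% of 98 annotated C/D box snoRNA genes (Snord) and 6.22% of 1383 snRNA genes. Placed exactly 3 bases from the end, ACA was found in 33 Snora members (84.6%), in 0 of the 98 Snord genes and in 0.94% of snRNA genes. ANANNA in the middle part was found in 94.9% of Snora and 66.7% of Scarna members, but also in 58.2% of Snord and 80.2% of snRNA genes. These letters were searched on the RNA strand only. CTGA in the last 15 bases, without an ACA at the end, was found in Scarna2, Scarna6, Scarna9, Scarna10 and Scarna17, and in 93.9% of Snord genes any CTGA stood there. Snora44 and Snora81 had neither, which says only that these letters are not at the annotated end. The members therefore hold 41 RNAs with an H/ACA-type end and 5 with a C/D-type end.

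A host gene on the same strand enclosed 43 of the 48 members. Protein coding hosts held 35 of them. Among all 43 members with a host, 11 sat in ribosomal protein genes and 6 in Snhg genes, noncoding hosts of snoRNAs. Snora16a, Snora44 and Snora61 share the host Snhg12. For 21 members GENCODE holds another gene copy of 90% identity or more over 80% of the length. Their reads may be shared between copies. They include Scarna17 (Gm25443, 100% identity), Snora57 (Gm26132, 95.9%) and Snora44 (Gm25857, 93.0%). Snora73a and Snora73b are each other's closest copy, and single values of this pair are uncertain. Of the 43, 23 lay within introns, and reads of those that overlap an exon of their host may also come from the host transcript.

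In the selected table the members were rare. They took 0.0577, 0.0466, 0.0469, 0.126 and 0.0826% of counts in Control 3, 5, 7, 9 and 11. The shares in MSUS 2, 4, 6, 8 and 14 were 0.0773, 0.0528, 0.0596, 0.0265 and 0.0709%. Control 9 was the highest (95% Wilson interval 0.123 to 0.130%) and MSUS 8 the lowest (0.0246 to 0.0285%), and the groups overlapped. These intervals cover counting error only. Between 44 and 48 members had a count in a library. The Control mean was 0.0720% ± 0.0337 and the MSUS mean 0.0574% ± 0.0198 (SD, n = 5 each), and of counts outside tRNA the means were 0.101% and 0.102%.

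In the unselected table the shares were 0.0557, 0.0424, 0.0329, 0.118 and 0.0590% in Control 3, 5, 7, 9 and 11. MSUS 2, 4, 6, 8 and 14 held 0.0662, 0.0627, 0.0514, 0.0363 and 0.0495%. Control 9 again stood highest (0.110 to 0.127%), and Control 7 was the lowest. Control 9 also held the most Malat1 RNA, a nuclear long noncoding RNA, at 2764 and 1723 CPM (counts scaled to one common library size) in the respective tables, and MSUS 8 the least, at 254 and 342. The part of nuclear RNA in the members' order was not tested.

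Against the other snoRNAs, the members' weight differed between the tables. They made up 1.27 to 2.14% of all snoRNA and scaRNA counts in the selected table and 4.74 to 7.64% in the other. No library of either table reached the range of the other. All snoRNA counts also include features with other names, and 49.2% of 1409 such GENCODE genes had ACA in the last 9 bases. The members therefore do not cover every annotated snoRNA or scaRNA with ACA near its end. The C/D box snoRNAs took 0.614 to 3.74% of all counts in the selected table and 0.296 to 0.835% in the unselected one. Snora members made up 49.1 to 64.4% of member counts in the selected and 62.5 to 76.7% in the unselected table, the rest being Scarna. No test was made on these sums. The shares per library are plotted by group and table.

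**Figure D1:**
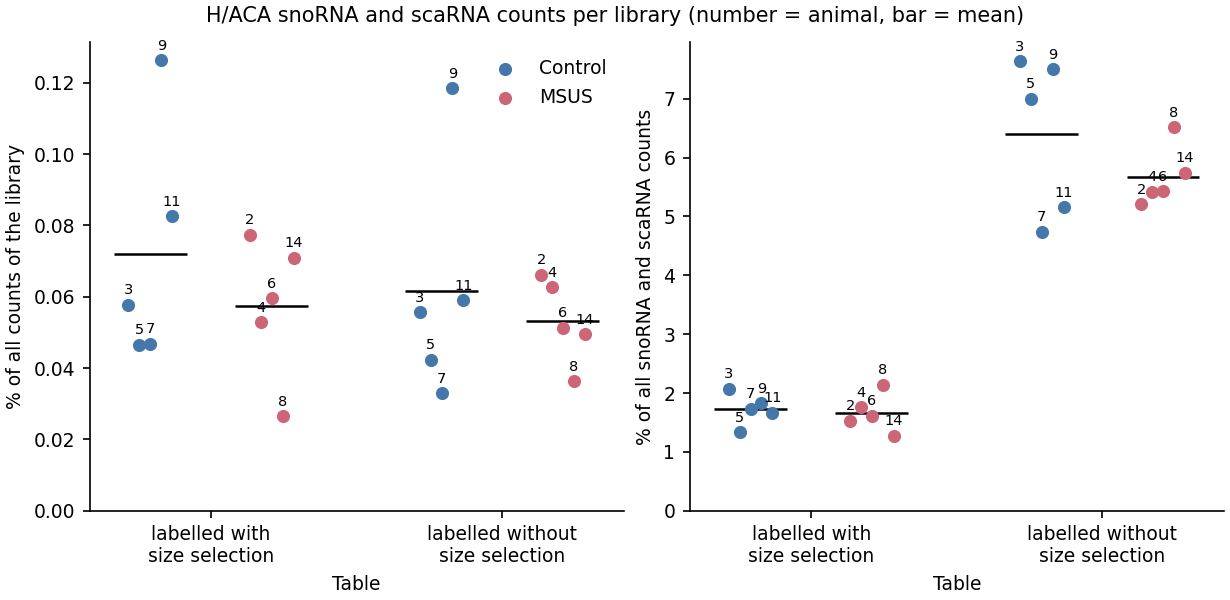
Share of H/ACA snoRNA and scaRNA counts in each library, in percent of all counts (left) and of snoRNA and scaRNA counts (right), by table and group. Points are animals and bars are group means of 5. Control 9 is the highest library on the left in both tables (0.126 and 0.118%), and on the right the tables do not overlap.

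Levels were compared between genes per length, as CPM after TMM scaling, divided by the RNA's length in kilobases. In the selected table the highest were Scarna17 (527 CPM per kb), Scarna9 (507), Scarna10 (311), Snora7a (249), Snora57 (223) and Snora44 (199). Scarna9 guides methylation of U2 and Scarna10 acts on U5, both spliceosomal RNAs. The order differed in the unselected table, where Snora44 led at 721 CPM per kb, before Scarna3b (384), Scarna3a (356), Snora7a (256), Scarna9 (223) and Snora20 (214). Scarna17 was at 41.7 there. At the low end, Snora35, which is encoded in the serotonin receptor gene Htr2c, had 7 counts in all in each table. Telomerase RNA Terc, another H/ACA RNA that is no member, had 4 counts and 1 count in all.

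The first comparison asked whether stress in early life goes with a change of single members in adult vesicles. The filter on low counts was passed by 30 of the 48 members in the selected table, which were tested among 10998 features. By edgeR's quasi-likelihood test 0 of 30 passed an adjusted p of 0.05, and so did 0% of all features. At an unadjusted p under 0.05, 3 members were higher and 0 lower in MSUS (background 3.46% higher and 2.32% lower). Among 72 tested C/D box snoRNAs, 22 were higher and 0 lower at that level. DESeq2 also called 0 members, with 3 higher at an unadjusted p under 0.05, though it called 32 features higher and 1 lower in all. No member had groups that did not overlap, as 0.909% of all features did.

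Snora44, which overlaps an annotated exon of its host Snhg12, stood at 22.8, 19.99, 23.0, 22.1 and 17.8 CPM in Control 3, 5, 7, 9 and 11. In MSUS 2, 4, 6, 8 and 14 it was at 32.3, 31.0, 28.8, 37.9 and 20.7 CPM. The first 4 of these MSUS libraries lay above every Control library, and MSUS 14 fell within the Control range. The means were 21.1 ± 2.19 and 30.1 ± 6.25 CPM (SD, n = 5 each), and by edgeR the log2 fold change was +0.48 (SE 0.15, unadjusted p = 0.00659, adjusted p = 0.839).

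Snora47 had 16.4, 12.0, 10.6, 15.5 and 16.2 CPM in Control 3, 5, 7, 9 and 11. MSUS 2, 4, 6, 8 and 14 had 34.5, 30.1, 26.5, 29.6 and 8.99 CPM. Again MSUS 14 stood apart, here below every Control library, with the other MSUS libraries above all of them. By edgeR its log2 fold change was +0.77 (SE 0.31, unadjusted p = 0.0271, adjusted p = 0.839).

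Snora73a, also known as U17, takes part in cutting the ribosomal RNA precursor. It was at 15.01, 13.6, 14.4, 18.9 and 13.6 CPM in Control 3, 5, 7, 9 and 11, and at 20.5, 25.3, 20.9, 17.9 and 15.9 CPM in MSUS 2, 4, 6, 8 and 14. All 5 MSUS libraries lay above the Control mean of 15.1, and the groups overlapped through Control 9. The log2 fold change by edgeR was +0.35 (SE 0.15, unadjusted p = 0.0356, adjusted p = 0.839), and that of its near copy Snora73b +0.16 (SE 0.24).

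Snora57 completed the named members on the higher side. Its Control libraries 3, 5, 7, 9 and 11 were at 26.6, 11.5, 22.8, 38.6 and 27.3 CPM, and its MSUS libraries 2, 4, 6, 8 and 14 at 59.9, 43.2, 46.8, 31.9 and 21.7 CPM. Control 3, 7, 9 and 11 lay within the MSUS range, and MSUS 8 and 14 within the Control range. The log2 fold change was +0.61 (SE 0.31, edgeR adjusted p = 0.879), and it ran from +0.39 without MSUS 2 to +0.83 without Control 9.

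On the lower side the named members were Snora74a (log2 fold change −0.12, SE 0.43), Snora36b (−0.07, SE 0.29) and Snora20 (−0.06, SE 0.43), none of them past the test. Snora20 was at 10.2, 5.38, 9.03, 23.1 and 9.51 CPM in Control 3, 5, 7, 9 and 11, and at 21.998, 12.0, 10.97, 4.63 and 7.99 CPM in MSUS 2, 4, 6, 8 and 14. Its 2 highest libraries, Control 9 and MSUS 2, came from different groups. These 3 signs were not stable. Without Control 9 they turned to +0.54, +0.01 and +0.47 in the order given.

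**Figure D2:**
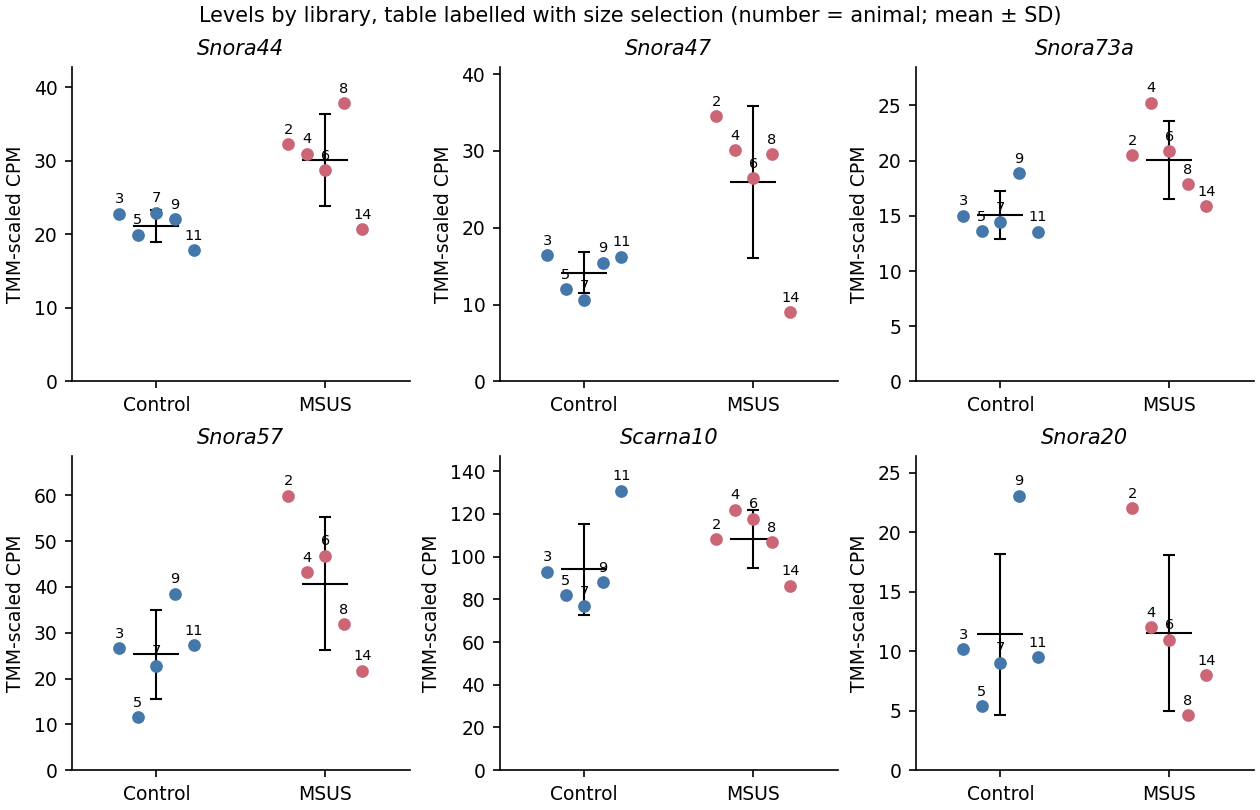
TMM-scaled CPM of 6 members in the selected table, by group. Points are animals with their number, and bars show the mean and SD of 5 libraries. In Snora44 and Snora47, MSUS 2, 4, 6 and 8 lie above all Control libraries and MSUS 14 does not, and in Snora20 Control 9 and MSUS 2 are the highest.

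The Scarna members had small log2 fold changes in MSUS. Scarna10, the member of highest CPM, was at 92.9, 82.0, 76.6, 87.9 and 131 CPM in Control 3, 5, 7, 9 and 11, and at 108, 122, 118, 107 and 86.5 CPM in MSUS 2, 4, 6, 8 and 14. Control 11 was the highest of all libraries, and the groups overlapped (log2 fold change +0.19, SE 0.16). Scarna17 was at +0.26 (SE 0.16), Scarna9 at +0.35 (SE 0.22), Scarna3a at +0.24 (SE 0.23) and Scarna3b at +0.18 (SE 0.37). Scarna2, another U2 guide, was at +0.10 (SE 0.29), Scarna6 at +0.37 (SE 0.27) and Scarna8 at +0.36 (SE 0.30). None of the 8 passed, and the smallest edgeR adjusted p among them was 0.882 (Scarna17). With 1 library left out at a time, values of the 8 reached as low as −0.030 (Scarna2, without MSUS 2) and as high as +0.63 (Scarna6, without Control 9).

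Among ribosomal guides of high CPM, Snora7a, encoded in Rpl32, was at +0.32 (SE 0.22), Snora68 at +0.33 (SE 0.37), and Snora30 at +0.34 (SE 0.29). None of these passed either, and each moved with single libraries. Snora7a ran up to +0.57 without Control 9, Snora68 from +0.15 without Control 5 to +0.75 without Control 9, and Snora30 from +0.081 without MSUS 2 to +0.62 without Control 9.

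Over the 30 tested members, 27 log2 fold changes were positive (49.8% of all features were), with a median of +0.27 against −0.00 over all features. Among 72 tested C/D box snoRNAs 69 were positive, with a median of +0.37. With no filter on low counts 33 of 48 members were positive, and their median was +0.14 (−0.02 over all features). These signs depend on the scaling. Scaled by library size alone, the median of all features moved to −0.58, 1 of 30 members was positive with a median of −0.36, and 26 lay above the median of all features, while 8 of the 72 C/D box snoRNAs were positive. Scaled by snoRNA and scaRNA counts, 10 of 30 were positive (median −0.06), the median of all features was at −0.40, and 28 members lay above that. The features used for that scaling include the members and the C/D box snoRNAs, so a median near 0 is partly set by it.

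A few libraries weighed on this comparison. Control 9, Control 11 and MSUS 14 had tRNA shares of 14.5, 25.3 and 23.8% in this table, and the other 7 libraries 34.6 to 66.0%. Control 9 and Control 11 also held the highest member shares of all counts (0.126 and 0.0826%). MSUS 14 was the lowest MSUS library in Snora44 and Snora47. Values without these 3 libraries are therefore not independent of the choice, and they were fitted under TMM scaling only. Without these 3 libraries, which leaves 3 Control and 4 MSUS libraries, 25 members were tested and 25 were positive (median +0.74). Of them 19 were higher at an unadjusted p under 0.05 (background 6.26%), while 0 passed the adjusted p. The C/D box snoRNAs moved likewise, with 71 of 71 positive and a median of +0.66. Without Control 9 alone 16 of 30 were higher at an unadjusted p under 0.05 (background 4.2%), with a median of +0.52 and 29 positive. The number at that level was 7 without MSUS 14 alone. Without Control 5, Control 7, MSUS 2 or MSUS 4 it was 1 each. Beside the 7 and the 1 the share of all features was not counted. That share was 3.46% in the fit of all libraries. Without the 3 libraries Snora47 was at +1.23 (SE 0.19, edgeR adjusted p = 0.103), Snora57 at +1.18 (SE 0.26) and Snora44 at +0.56 (SE 0.15). The part of the tRNA share in these values was not tested.

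**Figure D3:**
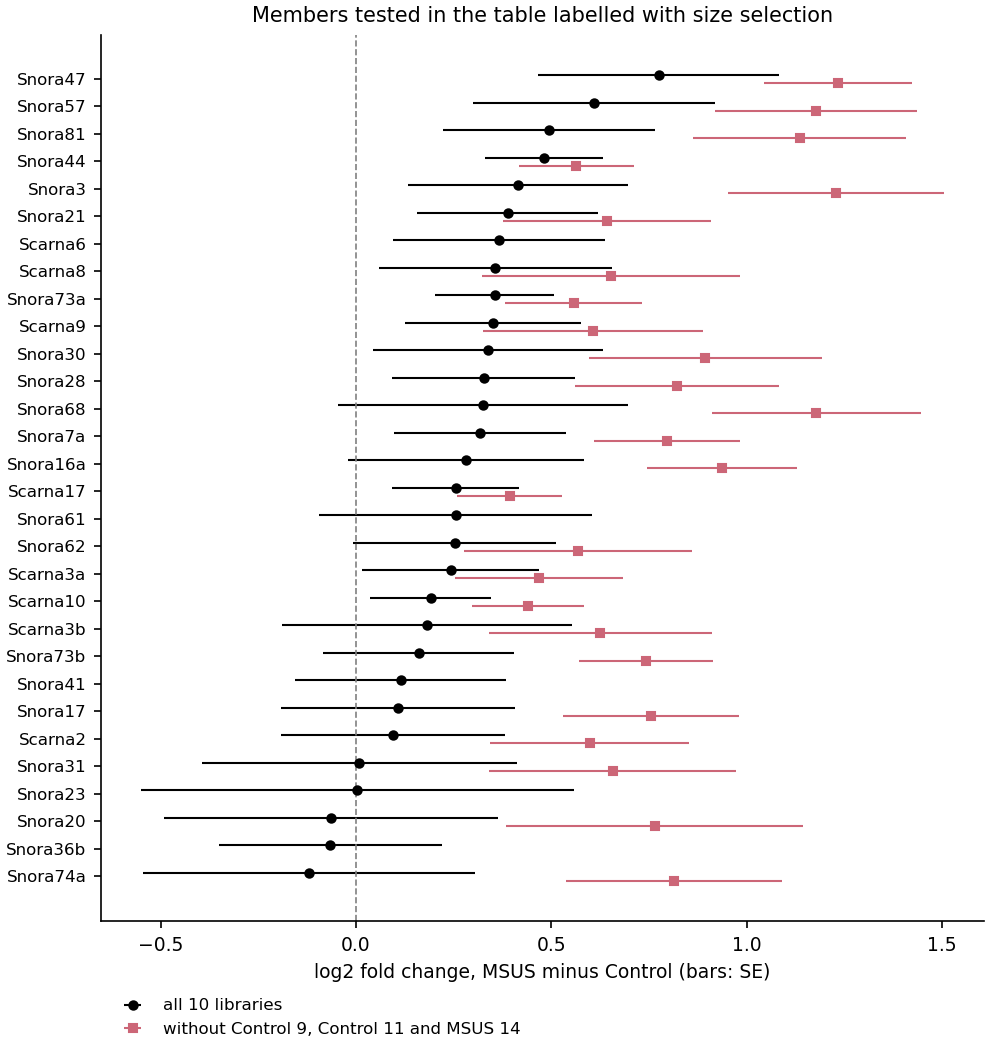
Log2 fold change of MSUS against Control, with SE, for the 30 members tested in the selected table. Black circles use all 10 libraries and red squares leave out Control 9, Control 11 and MSUS 14, where 25 members were tested. The libraries left out include the Control libraries with the highest member shares. Under the TMM scaling drawn here 27 of 30 circles and all 25 squares lie above 0. By library size alone 1 of the 30 would, with the median of all features at −0.58.

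Only 4 of 47 members passed the filter in the unselected table, among 1075 features tested. By edgeR 0 of 4 passed an adjusted p of 0.05 (0% of all features), and at an unadjusted p under 0.05 there were 0 members (background 3.53% higher and 4.37% lower). DESeq2 called 0. The median log2 fold change of the 4 was +0.21, against +0.01 over all features, and 3 were positive (50.3% of all features were). No member's groups stood apart, as those of 1.49% of features did. By library size alone 1 of 4 was positive, with the median of all features at −0.30. Leaving out 1 library moved the median from +0.048 (without Control 5) to +0.34 (without Control 11).

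Scarna3b was at 60.7, 42.7, 11.8, 37.4 and 61.4 CPM in Control 3, 5, 7, 9 and 11, and at 89.9, 101, 63.1, 35.7 and 30.5 CPM in MSUS 2, 4, 6, 8 and 14. MSUS 2, 4 and 6 stood above every Control library and MSUS 8 and 14 within their range (log2 fold change +0.48, SE 0.37, edgeR adjusted p = 0.624). Snora44 had 142, 86.0, 88.9, 61.0 and 56.5 CPM in the Control libraries and 107, 97.3, 91.6, 119 and 81.5 CPM in the MSUS libraries. Control 3 was the highest, and the log2 fold change was +0.21 (SE 0.26, edgeR adjusted p = 0.773). With 1 library left out Scarna3b ran from +0.20 (without MSUS 4) to +0.71 (without MSUS 14), and Snora44 from +0.046 (without Control 11) to +0.44 (without Control 3).

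Snora7a stood at 26.5, 23.6, 24.9, 77.6 and 40.3 CPM in the Control libraries and at 41.7, 30.1, 34.6, 19.9 and 39.6 CPM in the MSUS libraries. Control 9 lay above all other libraries, and the log2 fold change of −0.35 (SE 0.33) became +0.10 without it. Scarna3a was at +0.21 (SE 0.34), and it ran from +0.048 without Control 5 to +0.64 without Control 11. Without Control 9, Control 11 and MSUS 14 it was at +0.87 (SE 0.36, edgeR adjusted p = 0.205), Scarna3b at +0.82 and Snora44 at −0.12, and 2 of the 3 members then tested were higher at an unadjusted p under 0.05 (background 9.35%), with 0 past the adjusted p (0.206% of features).

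Whether the MSUS effect differed between the tables was tested within animals. By edgeR 0 of 27 members passed (0% of 8109 features), and 3 were more positive in the selected table at an unadjusted p under 0.05 (background 2.31%). They were Snora17 (difference of log2 fold changes +0.90, SE 0.42), Snora57 (+0.62, SE 0.28) and Snora7a (+0.52, SE 0.24), chosen here after their values were seen. Without animal as a block 0 were at an unadjusted p under 0.05, and by library size alone 0 were more positive and 1 more negative at that level.

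The last comparison was between the tables, which hold the same libraries from different sequencing runs. In its main fit both samples of an animal were treated as independent. Of 27 members tested, 2 were higher in the selected table (18.5% of 8109 features) and 13 were lower (16%) by edgeR at an adjusted p of 0.05. The median was −0.90, against +0.10 over all features and +0.87 over 72 C/D box snoRNAs, of which 40 were higher and 11 lower. With animal as a block 3 members were higher (19.6% of features) and 17 lower (17.6%), and by DESeq2 2 and 16 (1411 and 1356 features). The split of calls moved with the scaling. By library size alone it was 7 higher and 8 lower, against 5664 and 623 of the 8109 features. The median of all features was then +1.04 and that of the members +0.08. The split was 2 and 19 when scaled by snoRNA and scaRNA counts (268 and 1989 features). With no filter, where 47 members were tested, it was 5 and 8 (5544 and 2638 features). Above the median of all features lay 5 of the 27 members under TMM. The number was also 5 by library size, by snoRNA scaling, by DESeq2 and with the animal block. It was 8 of 25 without Control 9, Control 11 and MSUS 14, and 14 of 47 with no filter.

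Scarna17 and Scarna10 were the 2 members that were higher. On a CPM scale common to both tables, Scarna17 ran from 20.9 to 44.0 (median 29.4) over the 10 libraries of the selected table and from 0 to 8.08 (median 4.33) over those of the unselected one. Its ranges did not overlap (10.1% of all features did not), and 10 of 10 animals were higher (log2 fold change +2.67, SE 0.29, edgeR adjusted p = 8.06e-09). It rests on 17 counts in the unselected table, and its reads may be shared with the gene copy Gm25443 (100% identity). Scarna10 ran from 57.0 to 98.6 (median 75.1) and from 9.27 to 48.8 CPM (median 30.3), also without overlap (+1.24, SE 0.17, edgeR adjusted p = 9.90e-07).

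On the lower side Snora44 ran from 13.4 to 28.3 CPM (median 17.2) in the selected and from 76.0 to 169 CPM (median 118) in the unselected table. The ranges did not overlap, and 10 of 10 animals were lower (log2 fold change −2.60, SE 0.14, edgeR adjusted p = 4.92e-15). Scarna3b ran from 4.70 to 14.5 CPM (median 9.75) and from 13.7 to 136 CPM (median 62.1), which overlapped at their ends, with 10 of 10 animals lower (−2.93, SE 0.30, edgeR adjusted p = 3.57e-08). Scarna3a ran from 10.5 to 25.98 CPM (median 19.5) and from 23.9 to 111 CPM (median 53.1), at a log2 fold change of −1.90 (SE 0.23), with 10 of 10 animals lower.

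Snora20, in an intron of the chaperonin gene Tcp1, ran from 3.46 to 17.5 CPM (median 7.42) and from 7.24 to 113 CPM (median 28.4), with 9 of 10 animals lower (−2.15, SE 0.41). Snora17 ran from 3.62 to 10.5 CPM (median 5.32) and from 4.58 to 75.8 CPM (median 15.6), again with 9 of 10 animals lower (−2.01, SE 0.40). The other 8 members called lower ranged from −2.38 (Snora24) to −0.90 (Snora62). They included Snora41 (−1.85), Snora21 (−1.66), Snora47 (−1.19), Snora73a (−1.05), Snora16a (−1.02) and Snora7a (−0.94). By library size alone 8 of the 13 were still called lower, and both members called higher were still called. Snora47 (−0.30), Snora16a (−0.086) and Snora73a (−0.072) lost the call under that scaling, and Snora7a (+0.080) and Snora62 (+0.036) also changed sign. Their edgeR adjusted p then ran from 0.290 (Snora47) to 0.930 (Snora62). Scarna9 at +0.50 (SE 0.29), Scarna8 at −0.34 (SE 0.35) and Scarna2 at −0.05 (SE 0.28) did not pass, and Scarna9 passed with animal as a block (+0.52, edgeR adjusted p = 0.0437).

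The type of 3′ end was set beside these differences. The 4 tested members with a C/D-type end had a median of +0.87, and 3 were positive (56% of all features were). The 23 others had a median of −1.01, and 2 were positive under TMM. By library size alone 12 of the 23 (median +0.021) and 4 of the 4 C/D-type members (median +1.81) were positive. The median of all features was then +1.04, and 5664 of 8109 features were called higher. Scaled by snoRNA and scaRNA counts, 3 of the 4 and 1 of the 23 were positive, with the median of all features at −0.32. Across the 27 members the difference had a Spearman's rho of −0.000612 and a Pearson's r of 0.149 with RNA length, and 0.123 and 0.164 with GC content. These are descriptions over genes that share the same libraries, and genes are not independent replicates. Scarna17 (79 nt) and Scarna10 (325 nt), far apart in length, were both higher.

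**Figure D4:**
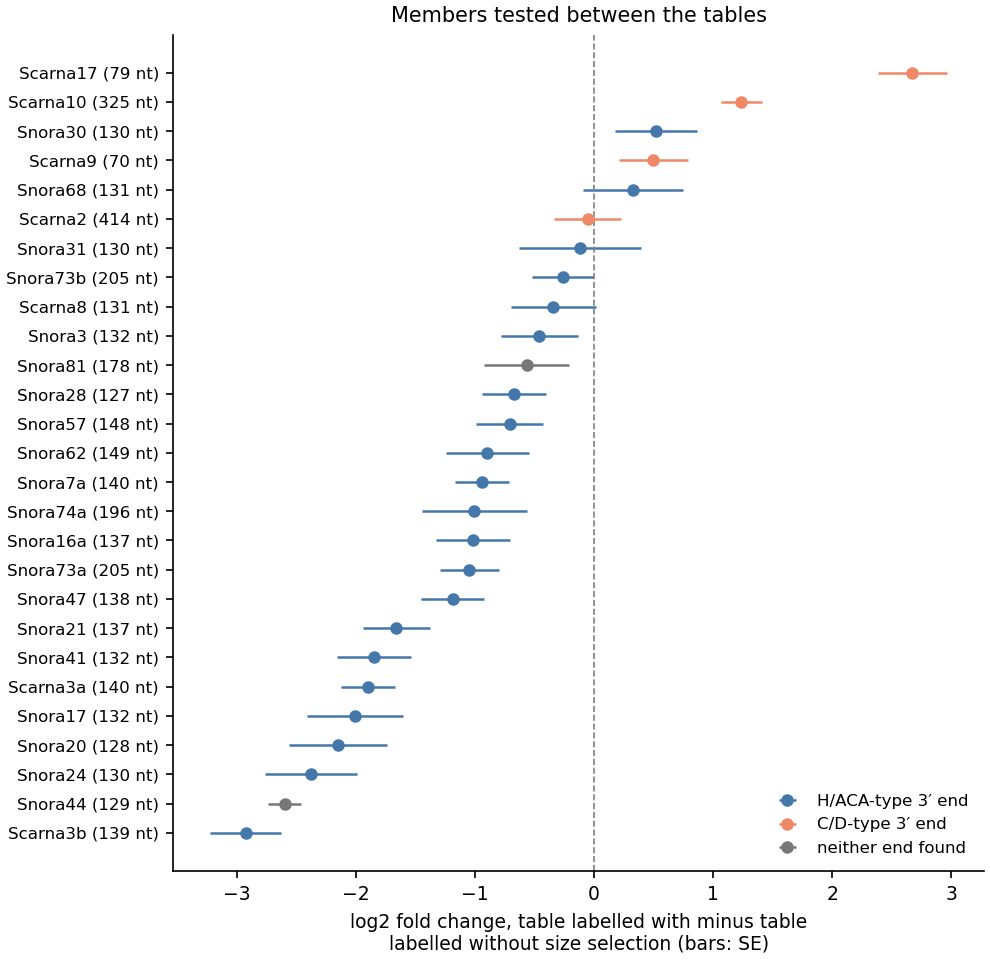
Log2 fold change of the selected over the unselected table, with SE, for 27 members, named with their length. Colour gives the type of 3′ end. Orange points (C/D-type) lie to the right. Under the TMM scaling drawn here 3 of 4 of them and 2 of the other 23 lie above 0. By library size alone 4 and 12 would, with the median of all features at +1.04.

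Genes of the same pathway were read from lists of known factors in the selected table. Of the 4 core proteins that bind H/ACA RNA, Nop10 (+0.15, SE 0.19) and Nhp2 (+0.26, SE 0.19) were tested for MSUS against Control, and 0 passed. Dkc1, the synthase itself, and Gar1 had too few counts. Of 8 assembly factors 7 were tested and 0 passed, with a median of −0.01 that ran from −0.20 (Nufip1) to +0.37 (Ruvbl1). Of 5 genes for 3′ end and cap processing 5 were tested and 0 passed (median −0.03). Of 7 Cajal body and nucleolar genes 4 were tested, 0 passed and 4 were positive, from Ncl (+0.08) to Fbl (+0.40). Coil and Wrap53, markers of Cajal bodies, were not tested for low counts. Among 7 nuclear RNAs 6 were tested and 0 passed. Malat1 was at −0.30 (SE 0.25) and Neat1 at −0.54 (SE 0.33), while Rmrp (+0.44, SE 0.23) and Rpph1 (+0.56, SE 0.22), short RNAs of RNase complexes, were positive. By library size alone 0 of the tested genes of these lists were positive, with the median of all features at −0.58. The list medians then ran from −0.66 (nuclear RNAs) to −0.39 (core proteins).

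Markers of cells that could shed RNA into this fluid were read in the same way. Of 49 epididymal epithelium markers 48 were in the table, and they summed to 3734 to 8132 CPM of all counts in Control and 1212 to 5885 in MSUS libraries. After TMM scaling 15 of the 21 tested were at a positive log2 fold change (median +0.10, 0 called). Crisp1, a secretory protein of this epithelium, had the most counts. In 1 or more libraries 24 of the 48 were at 0, Lcn5, Lcn8 and Rnase10 among them. Sperm markers summed to 284 to 535 and 244 to 538 CPM, with 12 of 12 at a positive log2 fold change (median +0.50, 0 called) and none at 0 in any library. For muscle and stroma the sums were 353 to 1152 and 170 to 1181, with 9 of 10 positive (median +0.45, 0 called). Blood cell markers summed to 110 to 260 and 45.9 to 187, and 3 of 8 were tested (3 positive, median +0.20, 0 called). By library size alone 0 of 21 epithelium, 0 of 12 sperm, 5 of 10 muscle and stroma and 0 of 3 blood cell markers were positive. Their medians were −0.47, −0.15, −0.07 and −0.34 in that order, against −0.58 over all features. The part of these cells in the members' values was not tested.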

How the data were processed

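Small RNA of cauda epididymosomes was read in 20 samples (5 Control and 5 MSUS animals, 2 tables), grouped and numbered by the sample titles. The tables as deposited hold estimated counts for each RNA, many not whole, and per the submitters' processing notes STAR, edgeR and the build GRCm38 were used. For the assignment of reads by the authors, the rule is not stated in the sources used here. Estimated counts were rounded for the tests, which removed at most 0.0992% and 0.689% of counts per library. Each table was fitted alone with edgeR 4.0.16 in R 4.3.3 (filterByExpr at a minimum count of 10, TMM factors of 0.411 to 1.76 and 0.762 to 1.48, robust quasi-likelihood test, Benjamini-Hochberg over all features, threshold 0.05). SE were derived from the test statistic. Between tables, all 20 samples and the shared 54796 features were fitted with condition as covariate. A change of the MSUS effect with the table was tested as an interaction, with animal as a block. DESeq2 1.42.0 was an alternative. Sums over members were not tested.

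The labels give the same animal number to both samples of a library. Deviations from group means over 1074 features correlated at 0.349 to 0.752 within animals, with 9 of 10 matching their own number best. The labels name no litters, so p-values for MSUS against Control reflect only the spread between the 10 males. Between tables the main fit had no animal term, so its p-values treat both samples of an animal as independent. On simulated data, 73% of 2-fold and 85% of 4-fold changes were recovered in the fit of the selected table (10998 features). The rates were 68% and 83% in that of the unselected table (1075), and 80% and 93% between tables (8109). Per fold, 100 features drawn from all tested were changed, and all libraries otherwise shared the same composition. These rates therefore do not give the recovery for the members in the real libraries.

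Members and gene lists were chosen with earlier results of these data known. Named are the 10 members of highest CPM per table, Scarna members that passed the filter, the 4 smallest p-values per direction and the 5 largest calls per direction between tables at 10 CPM or more. Coordinates, hosts and sequences come from GENCODE vM21, and copies were sought with BLAST 2.17.0. Snora16a and Snora43 have 2 gene entries each there, and a single entry of each was used. Alternatives were other scalings, no filter, no rounding, leaving out libraries and the animal block.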

Additional observations from a re-analysis of the deposited data

Results flagged for a closer look

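In 64 groups of 5 libraries, 5 values stood apart from the rest of their group by Dixon's criterion, which by chance alone flags about 5% of groups, and all 5 were high values of Control 9. In the selected table Snora73a was at 18.9 CPM there, with the next Control library at 15.01. Snora74a was at 21.9 CPM, with the next at 8.51. Snora20 was at 23.1 CPM, with the next at 10.2. In the unselected table Snora20 was at 89.8 CPM, with the next at 25.5, and Scarna2 at 56.1 CPM, with the next at 19.7. Control 9 also had the lowest tRNA share in the selected table (14.5%) and the highest Malat1 level in both tables. The part of these in the high values was not tested.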

How the results depend on the processing

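For members called for MSUS, 16 alternatives were run in each table (no filter, no rounding, DESeq2, 2 other scalings, 10 fits without 1 library, and 1 without 3 libraries), and each gave 0. For a change of the MSUS effect with the table, 2 alternatives were run, and each gave 0. Called members between tables without 1 animal ranged from 2 to 2 higher and from 12 to 14 lower. Other values moved, and the cause was not tested. Members higher at an unadjusted p under 0.05 in the selected table numbered 0 by library size, 0 by snoRNA scaling and 1 to 16 without 1 library. The 16 were without Control 9 (background 4.2%). Without Control 9, Control 11 and MSUS 14 they numbered 19 (median +0.74, background 6.26%).

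By library size 1 was positive (median −0.36), with Scarna10 at −0.45, Scarna17 −0.38, Scarna2 −0.52, Scarna9 −0.23, Snora7a −0.30, Snora57 −0.052, Snora44 −0.16, Scarna3a −0.39, Snora68 −0.36, Snora30 −0.27, Scarna3b −0.40, Scarna8 −0.28, Scarna6 −0.19 and Snora73a −0.25. By snoRNA scaling 10 were positive (median −0.065), with Scarna10 at −0.23, Scarna17 −0.20, Scarna2 −0.30, Scarna9 −0.10, Snora7a −0.051, Scarna3a −0.15, Snora30 −0.061, Scarna3b −0.21 and Snora73a −0.031. Snora74a and Snora20 turned to +0.022 and +0.012 with DESeq2 and to +0.81 and +0.77 without the 3 libraries. Over the 10 fits without 1 library, values ran from −0.39 to +0.54 for Snora74a, −0.27 to +0.061 for Snora36b, −0.50 to +0.47 for Snora20, −0.030 to +0.39 for Scarna2 and −0.022 to +0.52 for Scarna3b.

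In the unselected table, library size gave 1 positive, with Snora44 at −0.074 and Scarna3a at −0.055. Snora44 was at −0.082 by snoRNA scaling and −0.12 without the 3 libraries. In the latter fit 2 members were higher at an unadjusted p under 0.05 (median +0.82, background 9.35%). With no filter 21 of 45 were positive, with a median of −0.24 against −0.20 over all features. At an unadjusted p under 0.05 there were 1 higher and 5 lower, and the share of all features was not counted. At the adjusted p 0 members and 0 features were called in that fit. Snora7a ran from −0.49 to +0.10 without 1 library.

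Between tables, animal as a block gave 3 higher and 17 lower calls (19.6% and 17.6% of features) and Scarna2 at +0.0057. Library size gave 7 and 8 (5664 and 623 features), with Scarna2 at +0.94 and Scarna8 at +0.60. No filter gave 5 and 8 (5544 and 2638 features), with Scarna2 at +0.54 and Scarna8 at +0.25. Without the 3 libraries Scarna2 was at +0.17 and Scarna8 at +0.30. Without 1 animal Scarna2 ran from −0.11 to +0.20 and Scarna8 from −0.48 to +0.17. Of counts outside tRNA, the mean shares in the selected table were 0.101% in Control and 0.102% in MSUS. With features of 10 counts or more, those in the unselected table were 0.0377% (Control) and 0.0335% (MSUS) of all counts, and 4.60% (Control) and 4.10% (MSUS) of snoRNA and scaRNA counts. There, 4 of 47 members passed the filter on low counts.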
